A study of Mus musculus with 10 samples.

Results

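Transcript levels of 10 tubulin genes were examined in subcutaneous tumours of HEPA1-6 cells, an established mouse hepatoma line, after treatment with GSK343. The members were 4 alpha-tubulin genes (Tuba4a, Tuba1a, Tuba1b and Tuba1c), 5 beta-tubulin genes (Tubb2a, Tubb2b, Tubb4b, Tubb5 and Tubb6) and 1 gamma-tubulin gene, Tubg1. They were found by symbol among 55020 lines of the expression table, each symbol had a single line, and all 10 had a mean of at least 1 FPKM (fragments per kilobase of exon, scaled to library size), as did 14496 lines in all. The family was selected on the difference of Tuba4a between GSK343 and vehicle in these same tumours, among the clearest towards lower values, so that difference is given as a description.

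The cells were injected under the skin of C57/BL6 mice and the tumours grew for 4 weeks. The vehicle group held 5 tumours (numbered 1, 2, 3, 5 and 6) and the GSK343 group 5 tumours (numbered 1 to 5), stated to be biological replicates. GSK343 inhibits EZH2, the methyltransferase that places the repressive mark on lysine 27 of histone H3. The sample titles name GSK343 for the treated tumours only, so the vehicle group rests on elimination. The protocol further names 2 antibody injections, a control and anti-asialo-GM1 (a glycolipid on natural killer cells), without linking either to single tumours. The sources used here give no age, dose or schedule, and all tumours come from a single cell line.

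Microtubules are polymers of heterodimers of alpha- and beta-tubulin, and gamma-tubulin, in a ring complex, starts new microtubules. Newly made tubulin is folded by the chaperonin CCT with prefoldin and the tubulin cofactors, and free tubulin lowers the stability of tubulin mRNAs while they are translated, a feedback that needs the protein TTC5. Mammals encode several alpha and beta isotypes that differ most at the carboxyl-terminal tail, the part that carries polyglutamate chains and, in most alpha isotypes, a terminal tyrosine that is removed and put back by enzymes. Tuba4a is an alpha isotype known to be abundant in muscle, brain and platelets, whereas Tuba1b, Tuba1c and Tubb5 are widespread in dividing cells.

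The ends of the Tuba4a and Tuba1c coding sequences show how these 2 alpha isotypes differ at the tail. The last 48 coding bases are given 5′ to 3′ from GENCODE mouse release M21 transcripts (mm10), with the codon before the stop in capitals.
Tuba4a: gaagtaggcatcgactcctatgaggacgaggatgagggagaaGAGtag
Tuba1c: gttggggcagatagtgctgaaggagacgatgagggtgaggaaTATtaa
Tuba1c ends in a tyrosine codon, and Tuba4a does not. Over the coding sequence Tuba4a was 84.7% identical to Tuba1a, 85.0% to Tuba1b and 85.2% to Tuba1c. By contrast, Tuba1a and Tuba1b were 98.3% identical, Tuba1b and Tuba1c 97.9%, and Tuba1a and Tuba1c 97.1%.

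This likeness bears on how well each gene was measured. Of all 50-base stretches of the Tuba1a, Tuba1b and Tuba1c coding sequences, 93.9%, 95.6% and 90.6% also occurred in a transcript of another gene, mostly in each other and in pseudogenes, so their separate values are uncertain. The corresponding share was 2.4% for Tuba4a, 0.1% for Tubb5 and 0.0% for Tubb6. It was 60.0% for Tubb2a and 65.1% for Tubb2b, whose coding sequences were 96.5% identical. It was 61.1% for Tubb4b, mostly through its pseudogenes Tubb4b-ps1 and Tubb4b-ps2, and 18.9% for Tubg1, mostly through Tubg2. Over the whole transcript, the share was 48.8% for Tuba4a, mostly through the overlapping gene Stk16 on the other strand. For Tuba1a, Tuba1b and Tuba1c the whole-transcript share was 75.5%, 83.1% and 61.0%, and for Tubb2a, Tubb2b and Tubb4b 49.6%, 39.3% and 55.5%. For Tubg1, Tubb5 and Tubb6 the whole-transcript share was 14.1%, 0.1% and 0.0%.

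Tuba4a (ENSMUSG00000026202.13) lies on mm10 chromosome 1 from 75214228 to 75219865 on the minus strand. Its 3′ end overlaps that of Stk16, a kinase gene on the plus strand from 75210838 to 75215606. The overlap covers 1379 of the 3701 exonic bases of Tuba4a. No source used here states a strand setting, and unless the libraries were stranded, reads of both genes cannot be told apart in that stretch. The other alpha genes lie on chromosome 15, with Tuba1b from 98931425 to 98934565, Tuba1a from 98949837 to 98953703 and Tuba1c from 99029891 to 99038110. Tubb2a (34074274 to 34078007) and Tubb2b (34126748 to 34130466) are neighbours on chromosome 13, and Tubb4b is on chromosome 2 from 25222160 to 25224702. Tubb5 lies on chromosome 17 from 35833921 to 35838306, Tubb6 on chromosome 18 from 67390717 to 67402748 and Tubg1 on chromosome 11 from 101119938 to 101126419.

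The tumours were alike in the scale of the data, with FPKM sums of 574547 to 623397 and between 13985 and 14714 lines at 1 FPKM or more. The hepatoma label was borne out by Alb, the serum albumin gene, at 3129 ± 318 FPKM with vehicle and 2810 ± 278 with GSK343 (SD, n = 5 each). GSK343 tumours 3 and 5 had the highest mitochondrial shares of FPKM, 7.17% and 7.11%, against 2.63% to 5.05% elsewhere, so results were also computed without those 2 tumours. A limma test on log2(FPKM + 1) called 12 of 14496 lines, or 0.0828%, at an adjusted p under 0.05. These p-values weigh the difference between the groups against the spread between tumours, and differences on this log2 scale understate the change of low genes.

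The members spanned a wide range of levels. Averaged over the 10 tumours, the order was Tubb5 (290.5 FPKM), Tuba1b (253 FPKM), Tuba1a (185 FPKM), Tuba1c (157 FPKM), Tubb6 (107 FPKM), Tubb4b (71.7 FPKM), Tubb2a (56.9 FPKM), Tuba4a (35.1 FPKM), Tubg1 (20.9 FPKM) and Tubb2b (12.9 FPKM). Each neighbouring pair kept this order within 10 of 10 tumours. Across tumours, the ranges of Tubb5 and Tuba1b overlapped (264 to 336 and 225 to 273 FPKM), as did those of Tuba1a and Tuba1c (166 to 198.5 and 140.4 to 168 FPKM). Tuba4a had the largest coefficient of variation of the members, 20.7% over the 10 tumours, against 5.18% to 12.1% for the other members, but this pools the groups whose difference chose the gene. Within groups it was 11.1% with vehicle and 11.3% with GSK343 for Tuba4a, and 10.7% and 6.34% for Tubb6.

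**Figure D1:**
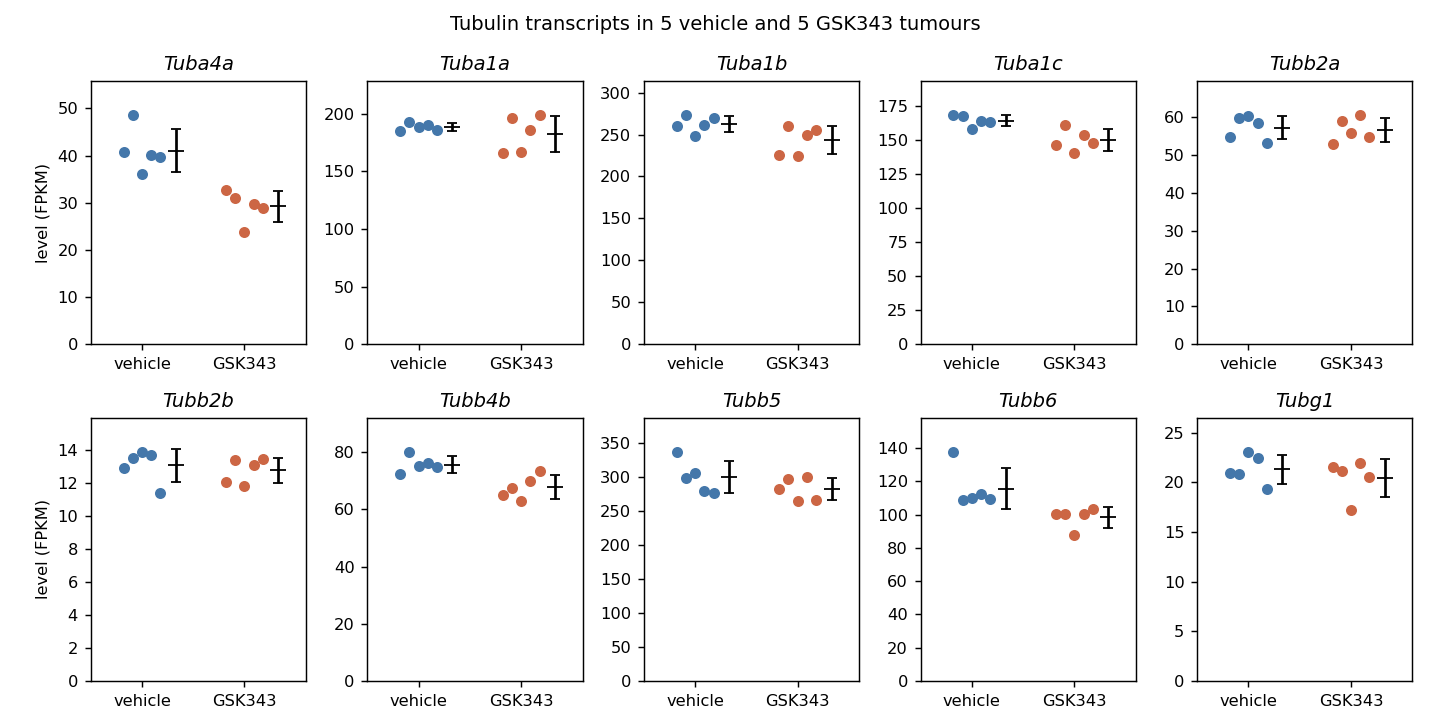
FPKM of the 10 tubulin genes in each tumour, 1 panel per gene, with vehicle and GSK343 tumours as points and the mean and SD of each group (n = 5) beside them. Only Tuba4a and Tubb6 have all GSK343 tumours below all vehicle tumours.

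Tuba4a was lower in the GSK343 tumours. It measured 40.7, 48.5, 36.1, 40.2 and 39.7 FPKM in vehicle tumours 1, 2, 3, 5 and 6, and 32.7, 30.9, 23.9, 29.6 and 29.0 FPKM in GSK343 tumours 1 to 5. The groups did not overlap: the lowest vehicle tumour, 3, lay above the highest GSK343 tumour, 1, and vehicle tumour 2 and GSK343 tumour 3 marked the extremes. The means were 41.0 ± 4.56 and 29.2 ± 3.31 FPKM (SD, n = 5 each), a change of -28.8% (log2 difference -0.48, SE 0.099, 95% interval -0.70 to -0.26). As a description of the value that chose the gene, Tuba4a ranked 52 of 14496 lines by p, and 6 among the 7593 lines with a lower mean, but it did not pass the threshold (limma adjusted p = 0.167).

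Stk16, which shares the 3′ stretch with Tuba4a, gave no such separation. It measured 14.6, 20.8, 22.8, 18.01 and 21.3 FPKM in the vehicle tumours and 24.6, 19.2, 23.9, 21.7 and 16.2 FPKM in the GSK343 tumours, with overlapping groups (19.5 ± 3.24 and 21.1 ± 3.46 FPKM, SD, n = 5 each; log2 difference 0.11, limma adjusted p = 0.709). Glb1l, a galactosidase-like gene that starts within 10 kb of Tuba4a, ranged from 1.76 to 5.27 FPKM with vehicle and from 3.88 to 5.02 FPKM with GSK343. The miRNA gene Gm27943 stayed at or below 0.358 FPKM in every tumour.

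The more abundant alpha genes differed less. Tuba1a, the isotype best known from developing neurons, measured 185, 193, 188, 190.3 and 186 FPKM with vehicle and 166, 196, 166, 186 and 198.5 FPKM with GSK343. The GSK343 tumours lay on both sides of the narrow vehicle range, with tumours 1 and 3 below it, 4 within it and 2 and 5 above it (188 ± 3.25 against 183 ± 15.8 FPKM, SD, n = 5 each; log2 difference -0.05, 95% interval -0.20 to 0.10, limma adjusted p = 0.732). Tuba1b, a widespread isotype, measured 261, 273, 248.8, 261 and 269.9 FPKM with vehicle and 226, 261, 225, 249.8 and 256 FPKM with GSK343, again with tumours 1 and 3 lowest (log2 difference -0.11, 95% interval -0.26 to 0.03, limma adjusted p = 0.396). Tuba1c measured 168, 167, 158, 164 and 163 FPKM with vehicle and 147, 161, 140.4, 154 and 148 FPKM with GSK343. Only GSK343 tumour 2 reached into the vehicle range of Tuba1c (log2 difference -0.13, 95% interval -0.26 to -0.01, limma adjusted p = 0.27), and with the score of 10 pan-leukocyte markers as a covariate its log2 difference was -0.08. None of these 3 genes passed the test, and because their coding sequences are nearly alike they cannot be taken as 3 fully separate measurements.

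Among the beta genes, Tubb6 and Tubb4b had the largest differences. Tubb6, an isotype found in many cell types at a low share, measured 138, 109, 110.1, 112 and 109 FPKM with vehicle and 100.4, 100.1, 87.5, 100.2 and 104 FPKM with GSK343. The groups did not overlap, but vehicle tumour 1 stood well above the rest and GSK343 tumour 3 well below. The means were 116 ± 12.3 and 98.4 ± 6.23 FPKM (SD, n = 5 each; log2 difference -0.23, 95% interval -0.41 to -0.05), which did not pass the threshold (limma adjusted p = 0.215). Without vehicle tumour 1 the log2 difference of Tubb6 was -0.16. With the score of 10 pan-leukocyte markers as a covariate it was -0.13.

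Tubb4b, a major beta isotype of most tissues and of cilia, measured 72.4, 80.02, 75.1, 76.2 and 74.6 FPKM with vehicle and 65.1, 67.4, 62.9, 70.0 and 73.5 FPKM with GSK343. Only GSK343 tumour 5 reached the vehicle range of Tubb4b (log2 difference -0.16, 95% interval -0.29 to -0.02, limma adjusted p = 0.231). Tubb5, the most abundant member and the main beta isotype of dividing cells, measured 336, 298, 306, 279.5 and 277 FPKM with vehicle and 282, 296, 264, 299.5 and 266 FPKM with GSK343. Its groups overlapped widely (log2 difference -0.09, 95% interval -0.25 to 0.08, limma adjusted p = 0.567). The log2 difference of Tubb5 was -0.04 without vehicle tumour 1, -0.03 without GSK343 tumours 3 and 5, -0.02 with the leukocyte covariate and -0.13 with the dividing-cell covariate.

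The neighbouring pair Tubb2a and Tubb2b, best known as neuronal isotypes, showed little difference. Tubb2a ranged from 53.2 to 60.3 FPKM with vehicle and from 53.0 to 60.5 FPKM with GSK343 (log2 difference -0.02, 95% interval -0.15 to 0.12, limma adjusted p = 0.914). Tubb2b ranged from 11.4 to 13.9 FPKM and from 11.8 to 13.4 FPKM (log2 difference -0.03, 95% interval -0.19 to 0.13, limma adjusted p = 0.852). Tubg1, the ubiquitous gamma-tubulin, measured 20.9, 20.8, 23.1, 22.4 and 19.4 FPKM with vehicle and 21.5, 21.1, 17.2, 22.0 and 20.5 FPKM with GSK343 (log2 difference -0.06, 95% interval -0.24 to 0.12, limma adjusted p = 0.729). The signs of Tubb2a, Tubb2b and Tubg1 turned under some of the other settings tried.

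Counted together, 10 of 10 members had a lower mean with GSK343, where 52.4% of all lines did, and 0 of 10 passed the adjusted threshold by limma. At an unadjusted p under 0.05, 4 members were lower (Tuba4a, Tubb6, Tubb4b and Tuba1c), where 6.86% of lines were, and in 2 members the groups did not overlap, where 1.2% of lines did so in this direction. The median log2 difference was -0.10 over the members and -0.01 over all lines. These counts use the same contrast that chose the family, so nothing is read from them against the background.

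**Figure D2:**
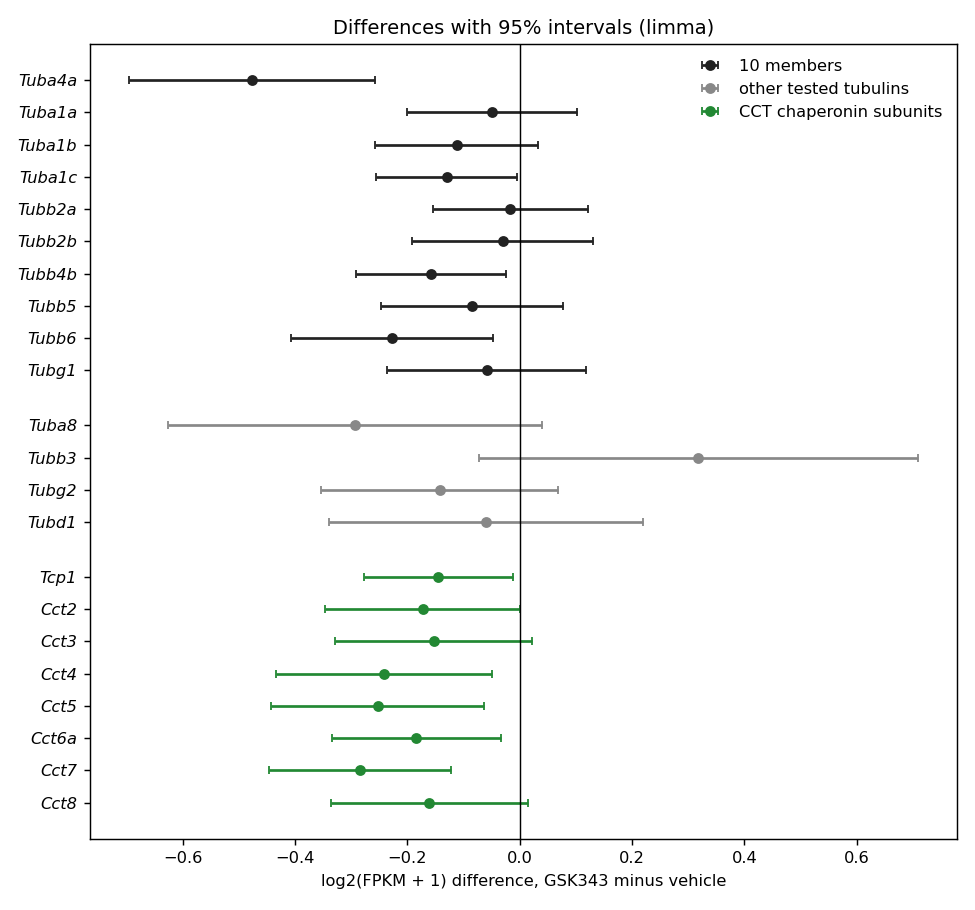
Log2 difference (GSK343 minus vehicle, on log2(FPKM + 1)) with its 95% interval from limma, for the 10 members (black), the 4 other tested tubulin genes (grey) and the 8 CCT chaperonin subunits (green), over 5 and 5 tumours. The CCT subunits were singled out after their values were seen. All estimates but that of Tubb3 are below 0, that of Tuba4a is the lowest at -0.48, and the unadjusted intervals of Tuba4a, Tubb6, Tubb4b, Tuba1c and 5 CCT subunits (Tcp1, Cct4, Cct5, Cct6a and Cct7) lie wholly below 0.

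Because the alpha genes differed unequally, the makeup of the alpha-tubulin mRNA pool differed as well. Tuba4a made up 6.22%, 7.12%, 5.72%, 6.13% and 6.02% of the summed FPKM of the 4 alpha members in the vehicle tumours and 5.73%, 4.77%, 4.302%, 4.79% and 4.59% in the GSK343 tumours. The groups met at their edges, where GSK343 tumour 1 lay just above vehicle tumour 3. The mean share was 6.24 ± 0.525% with vehicle and 4.84 ± 0.537% with GSK343 (SD, n = 5 each), which is a description since Tuba4a was picked for its difference. The share of Tuba1a was 28.7% and 30.2%, that of Tuba1b 40.02% and 40.21%, and that of Tuba1c 25% and 24.8%. In FPKM, the alpha members other than Tuba4a summed to 615 ± 13.8 with vehicle and 576 ± 38.9 with GSK343.

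The beta pool was dominated by Tubb5 in both groups, with mean shares of 53.3% and 54.5%. Tubb6 held 20.6% of the beta sum with vehicle and 19.02% with GSK343, Tubb4b 13.5% and 13.1%, Tubb2a 10.24% and 10.95%, and Tubb2b 2.33% and 2.46%. The alpha sum was 656 ± 18.04 and 605 ± 40.2 FPKM, and the beta sum 561 ± 33.5 and 517 ± 24.1 FPKM (SD, n = 5 each). The ratio of alpha to beta mRNA was 1.17 ± 0.0785 with vehicle and 1.17 ± 0.0504 with GSK343. Alpha and beta members together made up 0.203 ± 0.004% of all FPKM with vehicle and 0.186 ± 0.0118% with GSK343.

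**Figure D3:**
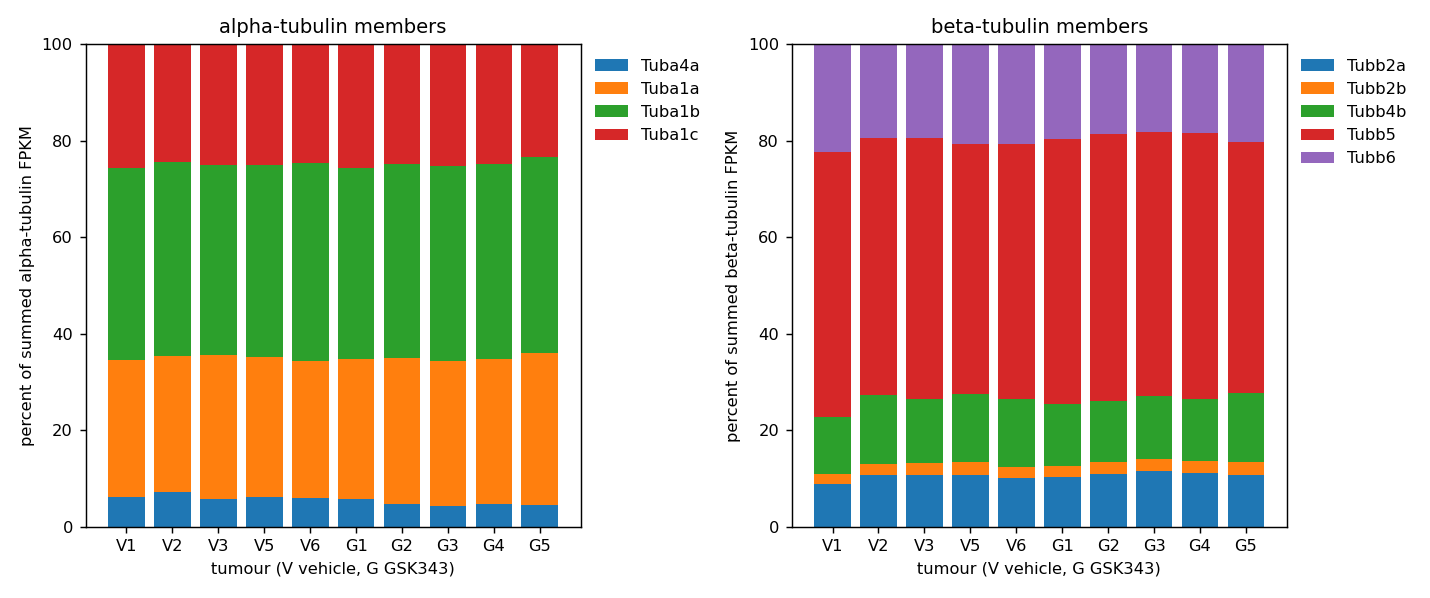
Share of each member in the summed FPKM of its family, in percent, for the 4 alpha and the 5 beta members, with 1 stacked bar per tumour. The Tuba4a segment spans 5.72% to 7.12% in vehicle tumours and 4.302% to 5.73% in GSK343 tumours, while Tuba1b stays the largest alpha segment and Tubb5 the largest beta segment in every tumour.

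The remaining tubulin genes were weakly expressed. Of 10 others listed, 4 had a mean of at least 1 FPKM and 0 passed the test. Tuba8, an alpha isotype, averaged 4.04 ± 1.33 and 3.02 ± 0.269 FPKM (log2 difference -0.29, limma adjusted p = 0.338), and Tubb3, the neuronal beta isotype, 2.58 ± 1.04 and 3.34 ± 0.479 FPKM (log2 difference 0.32, limma adjusted p = 0.374). Tubg2, the second gamma-tubulin, averaged 4.41 ± 0.223 and 3.93 ± 0.613 FPKM, and delta-tubulin Tubd1 1.57 and 1.45 FPKM. Below 1 FPKM were Tube1 (epsilon-tubulin; 0.784 and 0.964 FPKM), Tubb4a (0.445 and 0.535 FPKM), the platelet isotype Tubb1 (0.15 and 0.254 FPKM), and Tuba3a (0.0487 and 0.0244 FPKM). Tuba3b was listed at 0 in every tumour but vehicle 1, which had 0.0494 FPKM, and Tubal3 was listed at 0 in all 10.

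Tubulin folding genes were mostly lower with GSK343, without any passing the test. Of 24 such genes, all above 1 FPKM, 18 were lower and 6 higher, where 52.4% of all lines had a lower mean. At an unadjusted p under 0.05, 7 were lower and 1 was higher, where 6.86% and 10.7% of all lines were, and the median log2 difference was -0.13. The 8 subunits of CCT, the ring-shaped chaperonin that folds tubulin and actin, were singled out of this list after their values were seen. All 8 were lower, by -0.28 to -0.15 on the log2 scale (median -0.18), and 5 had an unadjusted p under 0.05. The 6 higher genes of the list all lay outside CCT, so the CCT counts are a description. The subunit gene Cct7 measured 192, 209, 183.5, 222 and 199 FPKM with vehicle and 165, 179.6, 150.1, 172 and 159 FPKM with GSK343, with no overlap (log2 difference -0.28, limma adjusted p = 0.191). The groups of Tcp1 also did not overlap, by a narrow margin (lowest vehicle tumour 109.3 FPKM, highest GSK343 tumour 109.0 FPKM). Of all lines, 1.2% had no overlap in this direction. Cct5 averaged 462 ± 30.7 and 389 ± 41.0 FPKM (log2 difference -0.25, limma adjusted p = 0.208). Lower means were also measured for Pdcl3, a phosducin-like cofactor of CCT (53.2 ± 3.59 and 40.7 ± 8.54 FPKM, limma adjusted p = 0.202), and for the prefoldin subunit gene Pfdn2 (131 ± 25.1 and 90.0 ± 28.4 FPKM, limma adjusted p = 0.205). The single gene higher at an unadjusted p under 0.05 was Tbcb, a tubulin cofactor (22.0 ± 3.79 and 27.6 ± 4.41 FPKM, log2 difference 0.32, limma adjusted p = 0.276), and Pfdn6 (log2 difference 0.13), Tbce (0.05), Tbcd (0.03) and Pfdn5 (0.00) were also not lower. Ttc5, the mRNA autoregulation factor, averaged 13.6 ± 1.45 and 13.9 ± 1.298 FPKM (log2 difference 0.03, limma adjusted p = 0.89).

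The genes of tubulin-modifying enzymes, not all of which act on the tail, were mixed. Of 25 listed, 16 reached 1 FPKM, of which 10 were higher and 6 lower (median log2 difference 0.08), and 0 passed the test. Hdac6, a deacetylase of alpha-tubulin, averaged 20.2 ± 1.41 and 17.2 ± 2.69 FPKM (log2 difference -0.23, limma adjusted p = 0.27). At an unadjusted p under 0.05, Hdac6 was the only 1 of the 16 that was lower, near the 6.86% of all lines. In the higher direction there were 0, where 10.7% of all lines were. Svbp, the partner of the vasohibins that cut off the terminal tyrosine, averaged 19.1 ± 1.52 and 22.1 ± 3.04 FPKM (limma adjusted p = 0.332). Ttl, the ligase that restores the tyrosine, averaged 1.37 ± 0.0706 and 1.62 ± 0.248 FPKM (limma adjusted p = 0.436), and Agtpbp1, a carboxypeptidase that trims glutamates, 3.37 and 3.09 FPKM (limma adjusted p = 0.693).

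Genes of the gamma-tubulin ring complex and its tethers gave a median log2 difference of -0.05, with 8 of 12 lower, 4 higher and 0 called. Tubgcp3, a core ring subunit, averaged 9.25 ± 0.895 and 7.81 ± 1.08 FPKM (log2 difference -0.22, limma adjusted p = 0.283). Another ring subunit, Tubgcp6, averaged 6.25 and 5.25 FPKM (limma adjusted p = 0.413), the ring component Mzt2 15.7 and 13.2 FPKM (limma adjusted p = 0.425), and Akap9, a large Golgi and centrosome scaffold, 4.51 and 5.36 FPKM (limma adjusted p = 0.385).

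Microtubule-associated, plus-end and severing proteins split 13 higher to 17 lower among the 30 tested of 39 listed (median log2 difference -0.04), with 4 higher at an unadjusted p under 0.05, near the 10.7% of all lines, and 0 called. The 4 with the smallest p were Map6, a microtubule stabiliser (0.662 ± 0.213 and 1.48 ± 0.515 FPKM, log2 difference 0.56, limma adjusted p = 0.191), Tacc1 (3.03 and 4.03 FPKM), the plus-end protein Clasp2 (6.09 and 7.19 FPKM) and the end-binding protein Mapre2 (10.9 and 12.3 FPKM). Map6 passed the filter of 1 FPKM only through the GSK343 tumours, since its highest vehicle tumour was at 0.925 FPKM. Its difference is therefore a description, and the count of 4 higher includes it. Kinesin and dynein genes split 17 higher to 19 lower among the 36 tested of 38 (median log2 difference -0.02), with 0 called. The kinesin gene Kif1c averaged 39.9 ± 2.71 and 32.96 ± 2.32 FPKM and Kif21b 2.16 ± 0.263 and 2.98 ± 0.371 FPKM, both with a limma adjusted p = 0.191. Kif1c had no overlap in the lower direction, as did 1.2% of all lines, and Kif21b none in the higher direction, as did 1.42% of all lines. A further kinesin gene, Kif21a, averaged 15.9 and 11.6 FPKM (limma adjusted p = 0.202). The dynein light chain gene Dynlt1b was listed at 0 in vehicle tumours 1, 2, 3 and 5, at 32.0 FPKM in vehicle tumour 6 and at 29.6 to 34.8 FPKM in the GSK343 tumours. It has near-identical copies, and such a 0 can be a failed estimate.

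Marker lists of several cell types leaned one way between the groups, without any marker passing the test. The 13 skeletal muscle markers summed to 130.2, 4.16, 114, 46.4 and 93.5 FPKM in the vehicle tumours and 72.4, 184, 541, 215 and 220.4 FPKM in the GSK343 tumours. All 13 had a higher mean with GSK343 (median log2 difference 1.42), 9 at an unadjusted p under 0.05, where 10.7% of all lines were. Of all lines, 52.4% had a lower mean with GSK343. The 10 pan-leukocyte markers summed to 345 to 1002 FPKM with vehicle and 703 to 1216 with GSK343, with 10 of 10 higher, 8 at an unadjusted p under 0.05 (median log2 difference 0.78). Only vehicle tumour 2, at 1002 FPKM, reached the GSK343 range, and the next vehicle tumour was 3, at 604 FPKM. The 16 markers of dividing cells summed to 606 to 739.8 FPKM with vehicle and 533 to 642 with GSK343, with 13 of 16 lower (median log2 difference -0.12). At an unadjusted p under 0.05, 3 of these were lower, where 6.86% of all lines were. Hepatocyte and hepatoma markers summed to 6318 to 8486 FPKM with vehicle and 5216 to 6555 with GSK343, with 12 of 13 lower, 4 at an unadjusted p under 0.05 (median log2 difference -0.18). Fibroblast markers summed to 1572 to 1985 and 1523 to 2324 FPKM, with 8 of 9 higher, 6 at an unadjusted p under 0.05 (median log2 difference 0.46). None of the markers in these lists was called, and the sums of each list overlapped between the groups. In whole tumours, fewer cells of a type and less RNA per cell cannot be told apart.

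Most platelet and neuronal markers were at low levels. Platelet and megakaryocyte markers summed to 24.6 to 48.4 FPKM with vehicle and 38.0 to 58.7 with GSK343, and 6 of 10, among them Gp1ba and Gp9, had a mean under 1 FPKM. Of the 4 tested, 3 were higher with GSK343 and 1 was lower. Pf4 averaged 29.5 ± 9.95 FPKM with vehicle and 42.1 ± 8.51 FPKM with GSK343 (log2 difference 0.54, limma adjusted p = 0.248). Neuron and nerve markers summed to 5.21 to 12.3 and 8.02 to 16.2 FPKM, and 11 of 14 were under 1 FPKM. Endothelial markers summed to 69.1 to 90.9 and 74.98 to 90.1 FPKM, and keratinocyte markers to 2.80 to 127 and 1.87 to 23.8 FPKM.

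Among these lists, the skeletal muscle score ran most closely against Tuba4a. The score, the mean log2(FPKM + 1) of the 13 markers, was 3.12, 0.33, 2.93, 1.83 and 2.65 in the vehicle tumours and 2.34, 3.42, 4.96, 3.64 and 3.76 in the GSK343 tumours. Vehicle tumour 2, with the lowest score, had the highest Tuba4a, and GSK343 tumour 3, with the highest score, the lowest Tuba4a. Over the 10 tumours the correlation was r = -0.89 (rho = -0.84), and r = -0.68 over the 8 tumours left after leaving out these 2. The tumours share the treatment contrast, so this is a description. Tuba4a correlated at r = -0.58 with the leukocyte score, at r = 0.59 with the dividing-cell score and at r = 0.63 with the summed hepatocyte and hepatoma markers. The log2 difference of Tuba4a was -0.49 with the leukocyte score as a covariate and -0.43 with the dividing-cell score. With the muscle score, a covariate chosen after seeing the data, it was -0.28 (limma adjusted p = 0.318). The part of other cells in the difference was not tested.

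**Figure D4:**
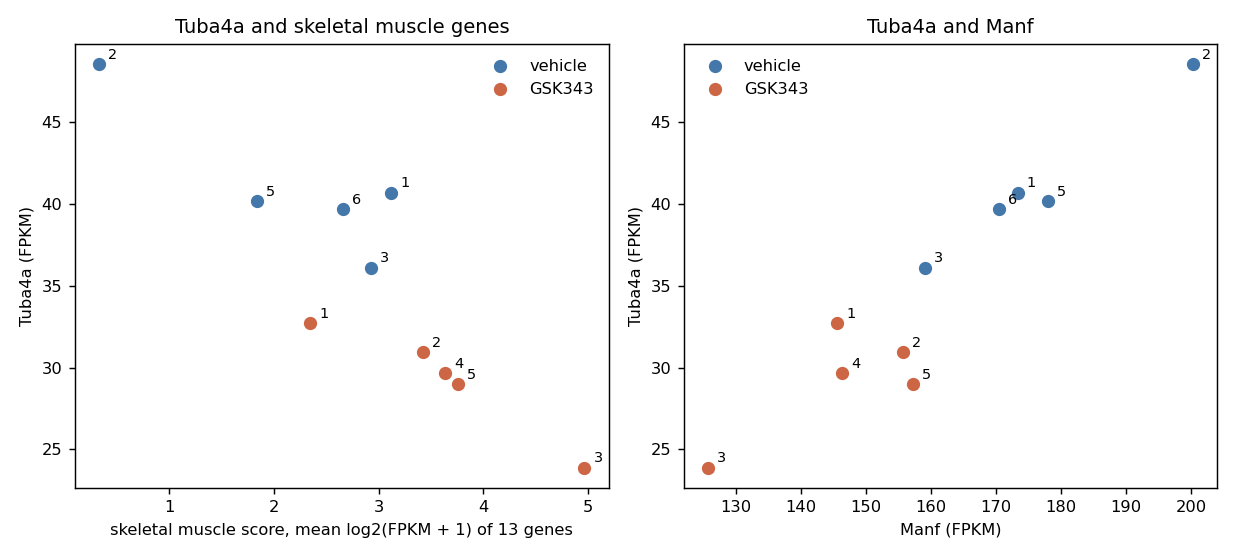
Tuba4a in FPKM in each of the 10 tumours, against the skeletal muscle score (mean log2(FPKM + 1) of 13 genes, left) and against Manf in FPKM (right), with vehicle tumours in blue, GSK343 tumours in orange and the tumour numbers beside the points. Vehicle tumour 2 and GSK343 tumour 3 lie at opposite ends of both plots, and Tuba4a runs against the muscle score (r = -0.89) and with Manf (r = 0.94), both r on the log2 scale. Both r include the difference between the groups.

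The members differed in how closely they followed Tuba4a across the tumours. On log2(FPKM + 1), Tuba1c followed it most closely (r = 0.88 over 10 tumours, 0.64 for deviations from the group means), then Tubb4b (0.81 and 0.46), Tubb6 (0.73 and 0.31) and Tuba1b (0.72 and 0.47). Tubb2a (r = 0.12) and Tubb2b (r = 0.25) followed it least. Among pairs with long shared stretches, r was 0.87 for Tuba1b and Tuba1c, 0.85 for Tuba1a and Tuba1b, 0.61 for Tuba1a and Tuba1c, and 0.74 for Tubb2a and Tubb2b. Pairs across the families or without such stretches reached like values, with 0.83 for Tuba1b and Tubb4b, 0.78 for Tuba1c and Tubb6, and 0.74 both for Tuba1c and Tubb4b and for Tubb5 and Tubb6. These r include the difference between the groups. For deviations from the group means, r was 0.79, 0.89, 0.64 and 0.73 for the pairs with long shared stretches, in the order above. It was 0.71 for Tuba1b and Tubb4b, 0.49 for Tuba1c and Tubb6, 0.35 for Tuba1c and Tubb4b, and 0.69 for Tubb5 and Tubb6.

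Of all named genes tested, the 6 with the highest r with Tuba4a over the 10 tumours were Manf, Kat7, Mlf2, Timm17b, Bcap31 and Phgdh, with r from 0.90 to 0.94. These r include the group difference that chose Tuba4a, and the genes were picked as extremes, so they are a description. For deviations from the group means, r ran from 0.71 (Phgdh) to 0.87 (Manf) over these 6. Manf, a factor of the endoplasmic reticulum stress response, measured 173, 200.3, 159, 178 and 170.5 FPKM with vehicle and 146, 156, 126, 146 and 157 FPKM with GSK343. Like Tuba4a, Manf was highest in vehicle tumour 2 and lowest in GSK343 tumour 3, and its deviations from the group means correlated with those of Tuba4a at r = 0.87. Kat7, a histone acetyltransferase, averaged 23.9 ± 1.298 and 20.4 ± 1.63 FPKM (r = 0.93). Phgdh, the first enzyme of serine synthesis, averaged 371 and 294 FPKM (r = 0.90), and Bcap31, a membrane protein of the endoplasmic reticulum, 171 and 157 FPKM (r = 0.91). Of the 6 lowest, 5 were muscle genes, among them myoglobin (Mb, r = -0.95), the calcium buffer Pvalb (r = -0.93) and the myosin light chain Myl1 (r = -0.93), and 1 was Ccdc82 (r = -0.93). These 6 were picked as extremes in the same way. Their r for deviations from the group means ran from -0.93 (Pvalb) to -0.76 (Ccdc82).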

How the data were processed

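Poly-A RNA was sequenced from 10 tumours (5 vehicle, 5 GSK343). The authors' deposited table names no unit, and its deposited values were taken to be FPKM from their size and the tools listed. The tools are StringTie 1.3.3b, HISAT2 2.1.0 and Trimmomatic 0.33 with the mm10 build, per the submitters' processing notes. Options, annotation release and strand are not given in the sources. The table's 10 unnamed columns were empty. No read depth is stated, so no counting interval is given.

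From these values, log2(FPKM + 1) was tested for every line averaging 1 FPKM or more, using limma-trend (limma 3.58.1, R 4.3.3). Calls used a Benjamini-Hochberg adjusted p under 0.05 over all lines, two-sided. The fit was tested on simulated data. The spans of the members are those deposited by the authors, and all but that of Tubb6 match GENCODE M21. The span of Stk16, the coding sequences and the 50-base stretches came from GENCODE M21. Plots used matplotlib 3.10.9.

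The members and the gene lists were chosen with earlier results of these data known. Named genes are the members, the other tubulin genes, up to 4 genes of each pathway list with the smallest p, the genes at or within 10 kb of Tuba4a, the 6 named genes most correlated with Tuba4a, and markers. Ttc5, Tbcb and other cofactors and prefoldins, the CCT subunits as a group and the lowest correlations were added outside that rule after their values were seen. Alternatives covered the filter, pseudocount, scaling, variance model, weights, covariates, the replicate block and each tumour left out.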

Additional observations from a re-analysis of the deposited data

Results flagged for a closer look

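In 7 of 54 sets of 5 tumours checked, the highest or lowest tumour stood apart from the other 4, measured as its gap to the nearest tumour relative to the whole range; chance alone gives about 5% of sets, and several of these sets share tumours or a common sum. Tubb6 stood apart in both groups, at 138 FPKM in vehicle tumour 1 (next 112 FPKM) and at 87.5 FPKM in GSK343 tumour 3 (next 100.1 FPKM). Tuba8 was 6.34 FPKM in vehicle tumour 1 (next 3.99 FPKM). Tubb3, the neuronal isotype, was 4.17 FPKM in GSK343 tumour 5 (next 3.22 FPKM). Delta-tubulin Tubd1 was 2.29 FPKM in vehicle tumour 6 (next 1.55 FPKM). In GSK343 tumour 5, Tubb4b held 14.4% of the beta-tubulin sum (next 13.04%) and Tubb5 52.1% (next 54.8%).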

How the results depend on the processing

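Over 23 alternatives, 222 of 230 values of the members kept their direction and none passed the threshold; 8 changed sign, all close to 0. Tubb2a turned to 0.000557 with the skeletal muscle covariate and 0.00529 without GSK343 tumours 3 and 5, and ranged from -0.0421 to 0.00596 with each tumour left out. Tubb2b turned to 0.0013 with the muscle covariate. Tubg1 turned to 0.00548 with it, 0.0159 without GSK343 tumours 3 and 5, and 0.000219 with the dividing-cell covariate. Both the muscle covariate and the omission of these 2 tumours were chosen after seeing the data. The log2 difference of Tuba4a ranged from -0.52 to -0.28 (limma adjusted p from 0.0581, without vehicle tumour 2, to 0.72), and was -0.38 without GSK343 tumours 3 and 5. The number of lines called, 12, became 4 with the muscle covariate, 4 without GSK343 tumours 3 and 5, 2 with the dividing-cell covariate, 2 with the leukocyte covariate, 7 with median-of-ratios scaling, 7 with quantile normalization, 3 with a minimum mean of 5 FPKM and 6 with no filter, and ranged from 3 to 98 with each tumour left out (98 without vehicle tumour 2). The cause was not tested. Same-numbered tumours did not deviate together (r from -0.33 to 0.03 over 4 numbers, and no tumour was closest to its own number). A fit with the replicate block, on the 8 tumours with shared numbers, called 2 lines (5 without the block), gave -0.49 for Tuba4a (limma adjusted p = 0.474) and called 1 pathway gene, Dynlt1b; with each tumour left out, 0 to 1 pathway genes were called.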
